A study of Arabidopsis thaliana with 8 samples.

Results

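Beta-glucosidases of glycoside hydrolase family 1 were followed through 21 single-gene probe sets of 21 genes, out of 22746 probe sets tested on each of 8 Affymetrix arrays. A gene was included when its symbol was BGLU followed by a number, or PYK10, after its gene ID had been looked up in RefSeq. The RefSeq gene table holds 47 genes with such a symbol or a BGLU synonym. 1 further gene, ATA27 (BGLU20), has a single-gene probe set under its other symbol, and the remaining 25, among them BGLU18, BGLU21, BGLU22, PEN2, TGG1 and TGG2, are not analysed here. The arrays were hybridised with biotin-labelled RNA of Arabidopsis thaliana, from roots and from root protoplasts of WT plants and of plants with a hira background, so that each of the 4 groups has 2 arrays. A protoplast is a cell whose wall has been digested away, and HIRA is a chaperone that places the histone variant H3.3 into chromatin outside replication. The labels name no hira allele, ecotype or plant age, and they give enzyme digestion as a treatment for root and protoplast samples alike. Nothing in them says that replicates are separate plants or cultures, so p-values reflect only the spread between these arrays, which may be technical. The study asks how hira affects the dedifferentiation that follows protoplast formation.

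Enzymes of this family cut glucose from small molecules. Plants store many defence compounds, hormones and lignin precursors as glucosides that stay inactive until a beta-glucosidase in another compartment, or in a damaged cell, reaches them. In Arabidopsis roots PYK10 and its closest relatives carry signals that hold them in the endoplasmic reticulum (ER), where they fill rod-shaped ER bodies and are thought to act on glucosinolates when cells break. Other branches of the family act on monolignol glucosides, coumarin glucosides, flavonol glycosides or the glucose ester of abscisic acid.

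All values below are on a log2 scale and centred on each probe set's median over the 8 arrays, so they show how arrays differ for 1 gene. They do not give a transcript's level, and genes cannot be ranked by them. As the samples are bulk RNA, fewer cells of a type and less RNA per cell cannot be told apart. Replicates correlated over all probe sets at r = 0.574 in WT roots and at 0.878 in hira protoplasts, with the other groups between, where probe sets are not independent. For the GAPDH control the 5′ probe set minus the 3′ probe set, a sign of RNA integrity and labelling, was lowest in WT roots at -2.22 ± 0.04 and highest in WT protoplasts at 0.62 ± 0.19 (SD, n = 2). Hira roots were at 0.04 ± 0.12 and hira protoplasts at -0.09 ± 0.01. Of 20 root cell type and green tissue markers 5 have a single-gene probe set. Of the root hair expansins, EXPA18 overlapped between WT roots and WT protoplasts, while EXPA7 was higher on both WT protoplast arrays. EXPA7 was at -0.07 and -1.84 in WT roots and at 0.07 and 1.75 in WT protoplasts. EXPA18 was at 0.25 and -1.49 on the WT root arrays and at -0.25 and 1.51 on the WT protoplast arrays. WT root replicate 2 was thus the lowest of these 4 arrays and WT protoplast replicate 2 the highest. The stele marker LHW was separate in WT, at 0.51 and 0.30 in roots and -2.02 and -0.84 in protoplasts. The markers CO2 and RCA changed by 0.003 and 0.12 in WT. In hira protoplasts against roots EXPA18 changed by -4.32 (limma adjusted p = 0.0299) and CO2 by -0.27 (0.0064). EXPA7 at -2.85, LHW at -0.99 and RCA at -0.66 did not pass there. CO2 also passed for hira against WT in roots (0.16, 0.0453) and in the difference between the protoplast responses (-0.27, 0.0453). Over all probe sets WT root replicate 2 and WT protoplast replicate 2 correlated with their own replicate, at r = 0.574 and 0.738. Both correlated negatively with the WT arrays of the other tissue, but centring each probe set over the arrays favours negative values between groups. WT root replicate 1 correlated with the hira roots at r = 0.573 and 0.447, and WT root replicate 2 at 0.228 and 0.147. Each of the 4 WT arrays was therefore left out in turn, and where this moved a member's WT change by over 1.5 times and the member's values are printed, the range is given. A group left with 1 array takes its spread from the other groups in such a fit. Leaving out an array outside the groups compared keeps the change and alters only the estimated spread and the p-values. The part of these differences in the results was not tested.

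The beta-glucosidases fell into probe sets that varied between arrays and probe sets that hardly did. 14 of the 21 spanned at least 0.5 over the 8 arrays, a limit set after the values were seen, and 7 spanned less. The narrowest of the 14 was BGLU33, with a span of 0.709, and the widest of the 7 was BGLU36, with 0.203. The largest span was that of BGLU28 at 7.57. The median span was 1.47 for the family and 1.38 for all probe sets tested, of which 28.3% spanned less than 0.5.

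**Figure D1:**
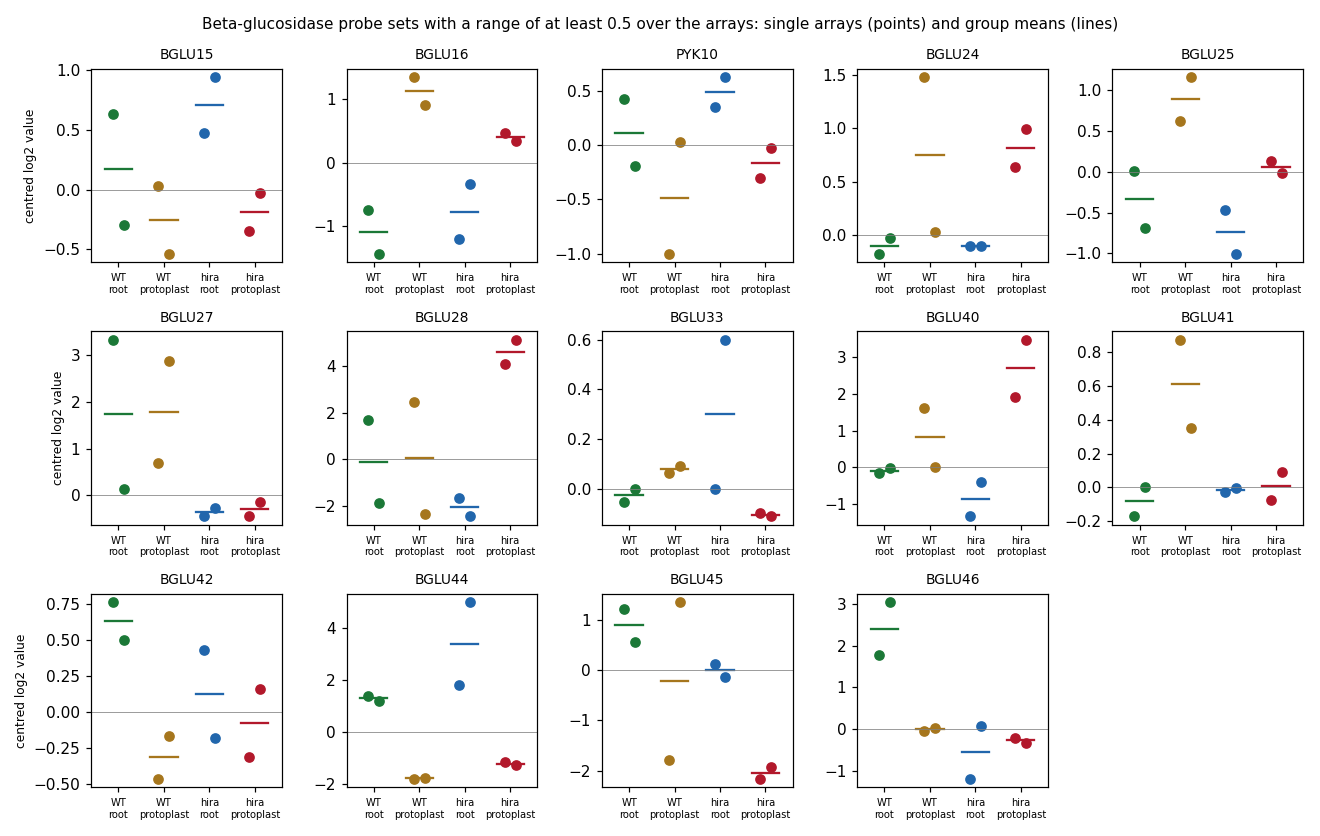
Centred log2 values (vertical axes, each panel on its own scale) of the 14 beta-glucosidase probe sets that span at least 0.5, with 1 point per array and a line at each group mean. BGLU44 is higher in roots than in protoplasts in both genotypes, BGLU46 stands out in WT roots, and BGLU28 and BGLU40 are highest in hira protoplasts.

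Few beta-glucosidases passed the test in any comparison. The share that passed was below that of all probe sets, but counts among 21 members are small. Whether the shares differ was not tested. In WT protoplasts against WT roots 3 of 21 passed (14.3%), with BGLU16 and BGLU36 higher and BGLU46 lower, by limma on all 8 arrays at a Benjamini-Hochberg adjusted p under 0.05. Of all probe sets tested 25.6% passed there, 11.7% higher and 13.9% lower. In hira protoplasts against hira roots 2 of 21 passed (9.52%), BGLU40 higher and BGLU44 lower. The share of all probe sets was 24.2%, with 12% higher and 12.2% lower. In roots 1 member, BGLU46, was lower in hira (4.76%), against 9.19% of all probe sets, of which 4.91% were higher and 4.28% lower. In protoplasts 1 member, BGLU36, was lower in hira (4.76%), against 8.29% of all probe sets, with 5.05% higher and 3.24% lower.

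Members moved in both directions, from 6.68 for BGLU28, which did not pass, to -4.62 for BGLU44, both in hira protoplasts against roots. With 7 narrow probe sets among the 21, a median near 0 does not describe the members that moved. The median log2 change of the 21 members was 0.08 for protoplasts against roots in WT and -0.03 in hira, where the medians of all probe sets were 0.03 and -0.02. For hira against WT it was -0.0014 in roots and -0.11 in protoplasts, beside -0.0039 and -0.05 over all probe sets. Changes of at least 1 in size were measured for 5 members in WT protoplasts against roots and 5 in hira, where 30.5% and 28.3% of all probe sets changed that much. Arrays of the groups compared did not overlap for 15 members in WT, 16 in hira, 7 between the genotypes in roots and 17 between them in protoplasts. The corresponding shares of all probe sets were 76.9%, 81.3%, 47.4% and 75.7%, so separate arrays are common throughout these data. None of the 7 calls of a member over the 5 comparisons held under every alternative it was tested under.

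**Figure D2:**
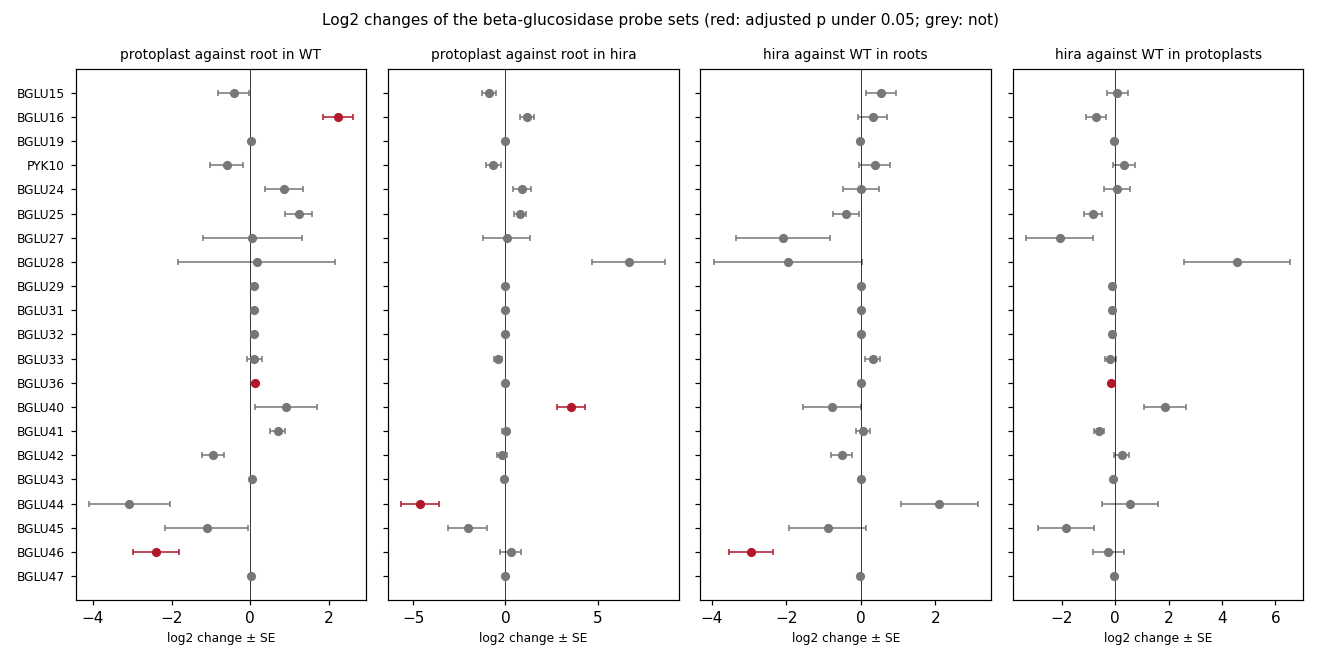
Log2 change with its standard error (SE, horizontal axes, each panel on its own scale) of the 21 beta-glucosidase probe sets in 4 comparisons, with those at an adjusted p under 0.05 in red. 5 members lie at or beyond 1 in size in each of the protoplast panels, and no gene is red in more than 1 of the first 2 panels.

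BGLU44 (AT3G18080), an enzyme that prefers beta-mannosides and mannan oligosaccharides, was the member with the deepest fall. Its values were 1.38 and 1.18 in WT roots, -1.80 and -1.77 in WT protoplasts, 1.81 and 4.98 in hira roots, and -1.18 and -1.28 in hira protoplasts. All 4 root arrays were higher than all 4 protoplast arrays, and hira root replicate 2 stood far above the others. In hira it fell by 4.62 in protoplasts (SE 1.03, limma adjusted p = 0.0362), a 24.6-fold difference. In WT the change was -3.07 (SE 1.03, adjusted p = 0.0958) with a 95% interval from -5.77 to -0.37, unadjusted for multiple tests. The hira call was lost without either WT root array (adjusted p = 0.0685), without either WT protoplast array (0.0706) without hira protoplast replicate 1 (0.144) or 2 (0.155), and with the hira arrays alone (0.133). It remained at -6.21 without hira root replicate 1 and at -3.04 without hira root replicate 2. The WT change passed with the WT arrays alone (limma adjusted p = 0.0175) and among probe sets with an SD of at least 0.2 (0.031). Without either hira root array it was again -3.07 and also passed. With 1 array left, the hira root group adds nothing to the estimated spread. The SD of the replicates was 0.14 in WT roots, 0.03 in WT protoplasts and 2.24 in hira roots. Without hira root replicate 1 the hira root group is the single array at 4.98, its spread is taken from the other groups, and the genotypes then differed in roots by 3.70 (0.00197) and in the response by -3.14 (0.00597). Without hira root replicate 2 these differences were 0.52 and 0.03, and neither passed.

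BGLU45 (AT1G61810) and BGLU46 (AT1G61820) cleave the glucosides of monolignols, the building blocks of lignin. BGLU46 was at 1.77 and 3.03 in WT roots, -0.04 and 0.04 in WT protoplasts, -1.18 and 0.09 in hira roots, and -0.21 and -0.32 in hira protoplasts. The 2 WT root arrays were the highest, and the other 6 arrays lay close to or below 0. It was lower in WT protoplasts than in WT roots by -2.40 (SE 0.58, limma adjusted p = 0.0429, 5.29-fold) and lower in hira roots than in WT roots by -2.95 (SE 0.58, adjusted p = 0.0497, 7.71-fold). Both comparisons share the WT root arrays, which also have the lowest GAPDH 5′ to 3′ difference, and whether RNA quality has a part in these values was not tested. In hira, protoplasts differed from roots by 0.28 (SE 0.58, adjusted p = 0.802), with a 95% interval from -1.24 to 1.80.

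The BGLU46 calls did not hold in every fit with 1 array left out. Some were lost without an array outside the groups compared, where the change itself stayed the same. The protoplast call in WT was lost without WT root replicate 2 (-1.77, adjusted p = 0.115), without WT protoplast replicate 1 (0.14) or 2 (0.13), without 1 or the other hira protoplast array (0.0949), and with the WT arrays alone (0.109). The call in roots remained without WT root replicate 1 and was lost without WT root replicate 2 (-2.32, adjusted p = 0.132). It was also lost without hira root replicate 1 (0.111) or 2 (0.0616), without either WT protoplast array (0.0921) and without either hira protoplast array (0.116). With the root arrays alone the adjusted p was 0.218.

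BGLU45 was at 1.22 and 0.56 in WT roots, -1.78 and 1.35 in WT protoplasts, 0.13 and -0.13 in hira roots, and -2.16 and -1.94 in hira protoplasts. The WT protoplast arrays held nearly the whole span of the gene, and the hira protoplast arrays were the lowest of all 8. It changed by -1.11 (SE 1.05) in WT and -2.05 (SE 1.05) in hira protoplasts, with limma adjusted p of 0.454 and 0.24. Without either WT protoplast array the hira change passed at the same size (adjusted p = 0.0187). The WT change was -2.67 without WT protoplast replicate 2 (0.0178) and 0.46 without WT protoplast replicate 1 (0.42), so its sign rests on which of these arrays is kept. Hira protoplasts were lower than WT protoplasts by -3.40 without WT protoplast replicate 1 (0.0385), and the difference was -0.27 without WT protoplast replicate 2 (0.652). BGLU47 (AT4G21760), of the same branch, stayed between -0.025 and 0.025 on all arrays.

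PYK10 (BGLU23, AT3G09260), the main protein of root ER bodies, passed in no comparison. Its values were 0.42 and -0.19 in WT roots, -0.999 and 0.03 in WT protoplasts, 0.35 and 0.63 in hira roots, and -0.30 and -0.03 in hira protoplasts. The 2 hira root arrays and 1 WT root array were the highest, and WT protoplast replicate 1 was the lowest. The change in protoplasts was -0.60 in WT (SE 0.41, limma adjusted p = 0.322) and -0.65 in hira (SE 0.41, adjusted p = 0.33). The 95% intervals ran from -1.67 to 0.47 and from -1.72 to 0.41. The WT change ran from -1.12 without WT protoplast replicate 2 to -0.09 without WT protoplast replicate 1. The hira minus WT value was 0.37 in roots and 0.32 in protoplasts, neither past the threshold. The protoplast value ran from -0.19 to 0.83 without 1 or the other WT protoplast array.

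Among the members the close relatives of PYK10 are BGLU19, BGLU24 and BGLU25, and none of them passed. ATA27 (BGLU20), which is no member, is described with the probe sets of narrow span. BGLU25 (AT3G03640) was at 0.01 and -0.69 in WT roots, 0.62 and 1.16 in WT protoplasts, -0.47 and -1.002 in hira roots, and 0.14 and -0.01 in hira protoplasts. Within each genotype both protoplast arrays of BGLU25 were above both root arrays. Its change was 1.23 in WT (SE 0.34, limma adjusted p = 0.0609) and 0.80 in hira (SE 0.34, adjusted p = 0.171). The WT change passed when only probe sets with an SD of at least 0.2 were tested (adjusted p = 0.028). BGLU24 (AT5G28510) was at -0.17 and -0.03 in WT roots, 1.47 and 0.03 in WT protoplasts, -0.10 and -0.11 in hira roots, and 0.64 and 0.99 in hira protoplasts. The 4 protoplast arrays were above the 4 root arrays, with WT protoplast replicate 2 nearly level with the roots. Its change was 0.86 in WT and 0.92 in hira (SE 0.49 each, adjusted p = 0.253 and 0.255). The WT change was 1.58 without WT protoplast replicate 2 (adjusted p = 0.0147) and 0.13 without WT protoplast replicate 1 (0.637). The hira change passed without either WT protoplast array (0.0255). BGLU19 (AT3G21370) stayed between -0.0101 and 0.0293.

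For genes that build ER bodies or bind PYK10, 6 of the 15 loci listed have a single-gene probe set, and 0 of 6 passed in each of the 5 comparisons (limma). At an unadjusted p under 0.05 there was 1 for hira against WT in protoplasts and 0 in the other comparisons. Of all probe sets 25.6% and 24.2% passed in WT and hira protoplasts against roots, 9.19% and 8.29% between the genotypes in roots and protoplasts, and 4.87% in the difference, and 6 genes are too few to be set apart from these shares. The median change of the 6 was -0.52 in WT protoplasts and -0.41 in hira protoplasts against roots, and 0.60 and 0.51 for hira against WT in roots and protoplasts. NAI2, which is needed for ER bodies to form, was at 1.07 and -0.31 in WT roots, -2.02 and 0.09 in WT protoplasts, 0.70 and 1.25 in hira roots, and -0.43 and -0.09 in hira protoplasts. Its highest and lowest arrays were the same as those of PYK10. WT protoplast replicate 1 was the lowest array for PYK10, NAI2 and the jacalin-related lectin genes JAL22 and JAL33, which is 4 of these 7 genes. The share of all probe sets that are lowest on this array is not given here. The pattern is therefore not shown to be particular to these genes. For NAI1, the transcription factor that switches on PYK10 and NAI2, and for JAL34 the lowest array was WT root replicate 2. JAL23 spanned only 0.147 and was lowest on hira protoplast replicate 1.

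**Figure D3:**
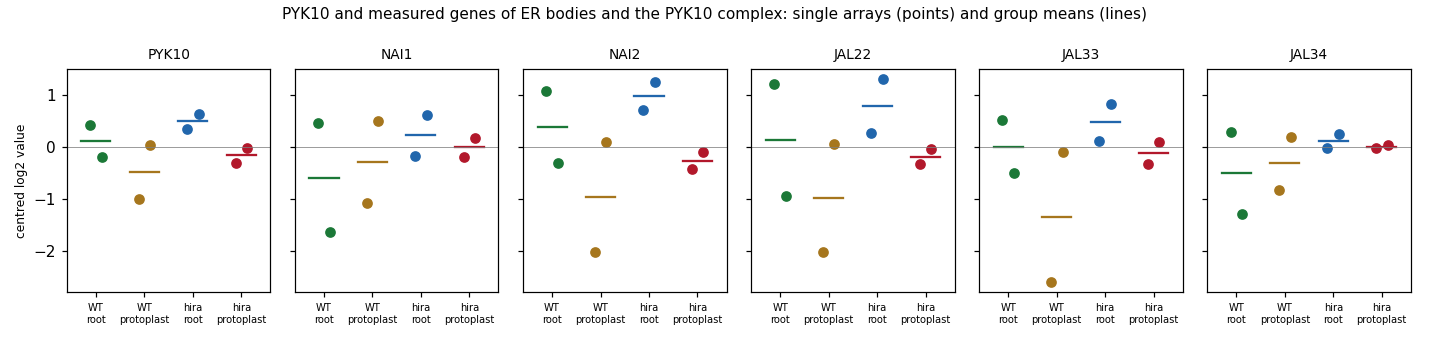
Centred log2 values (vertical axis, shared) of PYK10 and 5 measured ER body or PYK10 complex genes, with 1 point per array and a line at each group mean. The WT replicates lie far apart for all 5 of the other genes, as for NAI2 at -2.02 and 0.09 in WT protoplasts, while the hira protoplast replicates lie close together.

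BGLU15 (AT2G44450) and BGLU16 (AT3G60130) belong to a branch in which BGLU15 removes glucose from flavonol bisglycosides. BGLU16 was at -0.75 and -1.43 in WT roots, 1.35 and 0.92 in WT protoplasts, -1.20 and -0.34 in hira roots, and 0.48 and 0.34 in hira protoplasts. All 4 protoplast arrays were higher than all 4 root arrays. BGLU16 rose by 2.22 in WT protoplasts (SE 0.38, limma adjusted p = 0.0173, 4.67-fold), while in hira the change was 1.18 (SE 0.38, adjusted p = 0.0934). The WT call was lost without WT root replicate 2 (1.88, adjusted p = 0.0623), without WT protoplast replicate 1 (2.01, 0.0775) and with the WT arrays alone (0.0665). The hira change passed after quantile normalization (1.29, adjusted p = 0.0401). It also passed with 1 weight per group (0.0345) and among probe sets with an SD of at least 0.2 (0.0455). The responses of the genotypes differed by -1.05 (SE 0.54, adjusted p = 0.28).

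BGLU15 was at 0.63 and -0.29 in WT roots, 0.03 and -0.53 in WT protoplasts, 0.48 and 0.94 in hira roots, and -0.34 and -0.03 in hira protoplasts. Root and protoplast arrays overlapped in WT and were separate in hira, where roots were higher. Its change was -0.42 in WT and -0.89 in hira (SE 0.40 each), with limma adjusted p of 0.451 and 0.186. The WT change ran from -0.89 without WT root replicate 2 to 0.04 without WT root replicate 1.

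BGLU28 (AT2G44460), which breaks down glucosinolates when sulfur is short, had the largest difference of any member and did not pass. It was at 1.67 and -1.89 in WT roots, 2.48 and -2.36 in WT protoplasts, -1.67 and -2.44 in hira roots, and 4.11 and 5.13 in hira protoplasts. The hira protoplast arrays were the 2 highest, while in both WT groups 1 array was high and the other as low as the hira roots. The hira change in protoplasts was 6.68 (SE 1.996, limma adjusted p = 0.0752) and the WT change 0.17 (SE 1.996, adjusted p = 0.956), with a 95% interval from -5.05 to 5.38 in WT. The WT change was 2.59 without WT protoplast replicate 2 and -2.25 without WT protoplast replicate 1, and passed in neither. The hira change passed with the hira arrays alone (adjusted p = 0.021), with 1 weight per group (0.0248) and without either WT protoplast array (0.047). Hira protoplasts differed from WT protoplasts by 4.56 (SE 1.996, adjusted p = 0.2), and the responses differed by 6.51 (SE 2.82, adjusted p = 0.218). Without WT protoplast replicate 2 these values were 2.14 and 4.09, and without WT protoplast replicate 1 they were 6.99 and 8.93.

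BGLU27 (AT3G60120) was high on 1 array of each WT group. It was at 3.33 and 0.14 in WT roots, 0.70 and 2.88 in WT protoplasts, -0.45 and -0.26 in hira roots, and -0.44 and -0.14 in hira protoplasts. WT root replicate 1 and WT protoplast replicate 2 were far above the rest, and all 4 hira arrays were below all 4 WT arrays. The hira minus WT difference was -2.09 in roots and -2.08 in protoplasts (SE 1.26 each), with limma adjusted p of 0.408 and 0.315, and the WT replicates differed from each other by more. Without 1 WT array the difference ran from -3.69 to -0.50 in roots and from -3.17 to -0.99 in protoplasts, and the WT protoplast change, 0.05 with all arrays, from -1.54 to 1.65. In the same branch BGLU33 (AT2G32860), a vacuolar enzyme that frees abscisic acid from its glucose ester, had 1 array apart. Hira root replicate 2 was at 0.60, while the other 7 arrays lay between -0.11 and 0.09. No comparison of BGLU33 passed with all arrays. Without hira root replicate 1 it passed in hira protoplasts against roots (-0.70, adjusted p = 0.00591), in hira against WT roots (0.62, 0.0131) and in the difference between responses (-0.81, 0.0144), each then resting on hira root replicate 2 alone. Without hira root replicate 2 the same values were -0.10, 0.02 and -0.21, and none passed.

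BGLU40 (AT1G26560) was highest in hira protoplasts. Its values were -0.15 and -0.02 in WT roots, 1.62 and 0.02 in WT protoplasts, -1.32 and -0.40 in hira roots, and 1.92 and 3.46 in hira protoplasts. Hira roots were the lowest group and hira protoplasts the highest, and the WT groups lay between them, with WT protoplast replicate 2 at the level of the roots. BGLU40 rose by 3.56 in hira protoplasts (SE 0.78, limma adjusted p = 0.0348, 11.8-fold), and its WT change was 0.91 (SE 0.78, adjusted p = 0.42). The WT change ran from 0.10 without WT protoplast replicate 1 to 1.71 without WT protoplast replicate 2. The difference between these responses was 2.65 (SE 1.11, adjusted p = 0.206), so the responses are not shown to differ. The call was lost without either WT root array (adjusted p = 0.0665). The same held without hira root replicate 1 (0.128) or 2 (0.0793), without hira protoplast replicate 1 (0.0639) or 2 (2.78, 0.143), and with the hira arrays alone (0.0825).

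BGLU42 (AT5G36890) releases coumarins from their glucosides in roots and takes part in the systemic resistance that root bacteria induce. It was at 0.76 and 0.50 in WT roots, -0.46 and -0.16 in WT protoplasts, 0.43 and -0.18 in hira roots, and -0.31 and 0.16 in hira protoplasts. Root and protoplast arrays were separate in WT and overlapped in hira. The WT change was -0.95 (SE 0.28, limma adjusted p = 0.074), which passed among probe sets with an SD of at least 0.2 (adjusted p = 0.0452), and the hira change was -0.20 (SE 0.28, adjusted p = 0.696). BGLU41 (AT5G54570) was at -0.17 and 0.01 in WT roots, 0.87 and 0.35 in WT protoplasts, -0.02 and -0.01 in hira roots, and -0.08 and 0.09 in hira protoplasts. The WT protoplast arrays were the 2 highest. Its WT change was 0.70 (SE 0.19, adjusted p = 0.0565), which passed without WT protoplast replicate 2 (0.96, 0.0166) and after quantile normalization (0.0496). Without WT protoplast replicate 1 it was 0.44 (0.0851). The hira change was 0.02 (SE 0.19).

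The 7 probe sets of narrow span were BGLU19, BGLU29, BGLU31, BGLU32, BGLU36, BGLU43 and BGLU47, and they shifted together by small amounts. Both WT protoplast arrays were the highest for 6 of the 7, as they were for 76.5% of all probe sets that span less than 0.5. Both hira protoplast arrays were the lowest for 5 of the 7, against 71% of those probe sets. The medians of the least variable probe sets were 0.0359 and 0.0414 on the WT protoplast arrays and -0.013 and -0.0187 on the hira protoplast arrays. The protoplast groups of these genes thus lay on the same side of 0 as the array medians. ATA27 (BGLU20) behaved alike, between -0.0278 and 0.121, and passed in none of the comparisons.

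BGLU36 (AT1G51490), of the myrosinase branch, gave 2 of the 7 calls with changes of this small size. It was at -0.0081 and 0.0114 in WT roots, 0.107 and 0.158 in WT protoplasts, -0.0068 and 0.0068 in hira roots, and -0.0413 and -0.0453 in hira protoplasts. The WT protoplast arrays were the highest and the hira protoplast arrays the lowest. It was higher in WT protoplasts than in WT roots by 0.13 (SE 0.03, limma adjusted p = 0.0436, 1.09-fold) and lower in hira than in WT protoplasts by -0.18 (SE 0.03, adjusted p = 0.0463, 1.13-fold). Both calls were lost once each array was recentred on its least variable probe sets. Each was lost without any 1 of the 8 arrays, with adjusted p from 0.068 without WT protoplast replicate 1 to 0.139 without WT protoplast replicate 2 for the first call. For the second call it ran from 0.0533 without either WT root array to 0.213 without hira protoplast replicate 1.

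**Figure D4:**
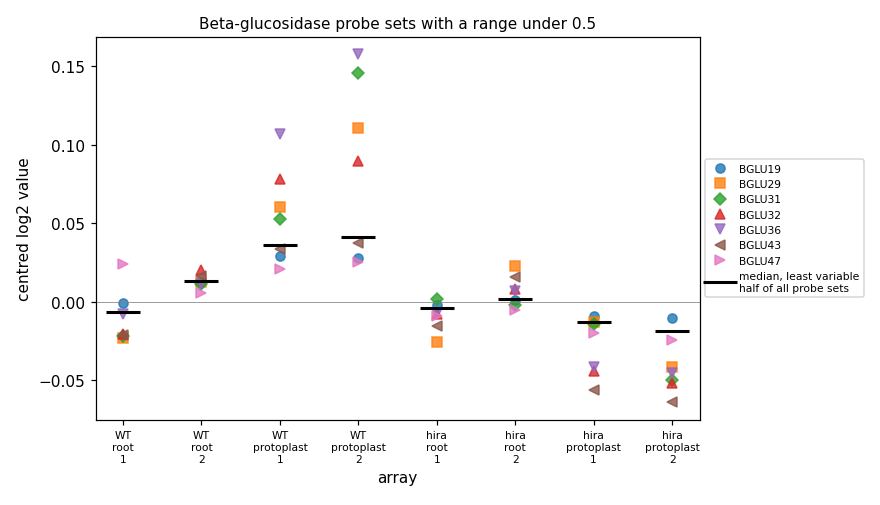
Centred log2 values (vertical axis) of the 7 beta-glucosidase probe sets that span less than 0.5, on each of the 8 arrays (horizontal axis), with a bar at the median of the least variable probe sets. The WT protoplast arrays lie above 0 and the hira protoplast arrays below 0 for the genes and for the bars alike.

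The response to protoplast formation was not shown to differ between the genotypes for any beta-glucosidase. 0 of 21 members passed in the difference between responses (limma), where 4.87% of all probe sets did, and 3 had an unadjusted p under 0.05. These 3 were BGLU46 at 2.68 (SE 0.82, adjusted p = 0.126), BGLU36 at -0.17 (SE 0.05, adjusted p = 0.0968) and BGLU32 at -0.13 (SE 0.04, adjusted p = 0.136). The estimates for BGLU28 at 6.51 and BGLU40 at 2.65 had wide intervals, from -0.86 to 13.9 and from -0.25 to 5.55. Without hira root replicate 1 the count was 2, BGLU33 and BGLU44, both of which then rest on hira root replicate 2 alone in that group.

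Several members lie next to each other in the genome, and neighbours often did not vary alike. With no protein-coding gene between them in the RefSeq annotation are BGLU15 and BGLU28, BGLU28 and BGLU29, BGLU16 and BGLU27, BGLU31 and BGLU32, BGLU43 and BGLU44, and BGLU45 and BGLU46. BGLU44 spanned 6.78 over the arrays, while its neighbour BGLU43 (AT3G18070) spanned 0.101. BGLU28 spanned 7.57 beside 0.152 for BGLU29 (AT2G44470) and 1.47 for BGLU15. BGLU16 was higher on every protoplast array than on any root array, and BGLU27 was high on 1 root and 1 protoplast array of WT. BGLU31 (AT5G24540) and BGLU32 (AT5G24550) both varied little, with spans of 0.195 and 0.142. How far probes of such related neighbours read each other's transcripts was not tested.

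Genes that make the stored glucosides were counted from lists chosen with earlier results of these data known. Of 14 loci for coumarin, monolignol and abscisic acid conjugates 8 have a probe set, and 2 rose in protoplasts in each genotype, where 11.7% of all probe sets in WT and 12% in hira were called higher. UGT71B6, which attaches glucose to abscisic acid, was at -1.25 and -0.69 in WT roots, 2.22 and 0.52 in WT protoplasts, -0.71 and -0.52 in hira roots, and 1.82 and 2.03 in hira protoplasts. It was higher on every protoplast array than on any root array, by 2.34 in WT and 2.54 in hira (SE 0.59 each, limma adjusted p = 0.0469 and 0.0392). The WT rise was 1.49 without WT protoplast replicate 1 and 3.19 without WT protoplast replicate 2. UGT71C5, which makes the same abscisic acid ester, rose by 0.82 and 1.02 (SE 0.19 each, adjusted p = 0.0375 and 0.0222). None of these 4 calls held without each array in turn, with adjusted p up to 0.164 without WT root replicate 1 and 0.171 without hira protoplast replicate 2 for UGT71B6. For UGT71C5 it reached 0.132 without WT protoplast replicate 2 in WT and 0.115 without hira protoplast replicate 2 in hira. BGLU33, which acts on that ester in the opposite direction, was at 0.10 in WT and -0.40 in hira (SE 0.20 each), without passing. None of the 8 passed between the genotypes or in the difference (limma), where 2 in roots, 1 in protoplasts and 0 in the difference had an unadjusted p under 0.05. Without WT root replicate 2, UGT71C5 was lower in hira than in WT roots by -0.89 (adjusted p = 0.0345), against -0.62 with all arrays. The glucosyltransferase genes UGT72E1, UGT72E2 and UGT72E3, listed for monolignol conjugates, passed in no comparison. UGT72E1 was at -0.45 in WT and -3.47 in hira protoplasts (SE 1.04 each, adjusted p = 0.756 and 0.0758). Its WT value was 1.13 without WT root replicate 1 (adjusted p = 0.0426) and -2.04 without WT root replicate 2 (0.0154), and its hira value passed without either WT root array (0.00377).

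Of 16 loci for indole glucosinolate synthesis only UGT74B1 has a single-gene probe set, and it passed in no comparison, at -0.82 in WT and -1.42 in hira protoplasts against roots (SE 0.75 each, limma adjusted p = 0.441 and 0.252). Its WT value ran from -1.78 without WT root replicate 2 to 0.15 without WT root replicate 1. The 11 loci for partners of glucosinolate breakdown have 0 single-gene probe sets in the annotation used and are not analysed here.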

How the data were processed

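The deposited table holds log2 values that the authors made with GCRMA, per the submitters' processing notes, where no version is stated. The log base is inferred from the values. Medians of probe sets across the arrays are all 0 within rounding, so the values are centred per probe set and keep no level. The 64 control probe sets were set aside, which left 22746, with no filter on low values. The platform annotation gave 1 gene for 13513 probe sets, several for 503 and listed none for 8794, and 13436 of the single-gene probe sets matched the RefSeq gene table (TAIR10.1) by gene ID. The files name no genome build, so no coordinates are given.

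A model of the 4 group means was fitted on all 8 arrays (limma 3.58.1 in R 4.3.3, lmFit and eBayes), with 4 residual and 0.742 prior degrees of freedom. The 5 comparisons were protoplast against root in each genotype, hira against WT in each tissue, and the difference between the responses. Tests were two-sided with Benjamini-Hochberg adjustment over all probe sets, at a threshold of 0.05. Intervals are 95% intervals of the fit. The fit was tested on simulated data, with no outcome given here. The 15 alternatives changed the normalization, the filter, the shrinkage, the arrays, the block or the weights. All members are named. Of each list at most 3 called members per direction were to be named, and the uncalled ones named here were picked after their values were seen. Members and lists were chosen with earlier results of these data known. Depth does not apply to arrays, and the number of arrays limits the precision. 0 columns of per-sample values were left unused.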

Additional observations from a re-analysis of the deposited data

Results flagged for a closer look

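The difference between the protoplast responses, hira minus WT, was not past the threshold for any member, so the following opposite moves were read from the arrays only and the difference was not shown by the test. For 6 members every WT protoplast array was above every WT root array while every hira protoplast array was below every hira root array: BGLU19 at -0.0317, BGLU31 at -0.14, BGLU32 at -0.13, BGLU33 at -0.51, BGLU36 at -0.17 and BGLU43 at -0.10. The same held for 27.8% of all probe sets and for 70.7% of those that span less than 0.5, a class that holds all 6 but BGLU33. For BGLU40 both hira arrays were below both WT arrays in roots and above both in protoplasts, with a difference of 2.65, and such a crossing was found for 13% of all probe sets.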

How the results depend on the processing

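Counts of called beta-glucosidases are small, and single settings move them. The share of all probe sets called under each setting is not given here. A change among the members thus cannot be told apart from a change over all probe sets. In WT protoplasts against roots the count of 3 became 5 among probe sets with an SD of at least 0.2, a filter that leaves out the members of narrow span. It became 1 with the arrays of the groups compared alone and 1 with 1 weight per group. With arrays recentred on their least variable probe sets it was 1 higher and 1 lower. In hira the count of 2 became 4 with the SD filter, 4 with group weights and 0 with the replicate block (3 at an unadjusted p under 0.05, limma), and quantile normalization gave 2 higher and 1 lower. In roots the count of 1 became 0 after that recentring, with the root arrays alone, with the replicate block and with group weights, each with 1 at an unadjusted p under 0.05. Between protoplasts the count of 1 became 2 with trend and robust shrinkage and 2 with group weights. It became 0 after that recentring, with the protoplast arrays alone and with the block, where 3, 8 and 6 had an unadjusted p under 0.05. The SD filter also gave 0, with 4 at an unadjusted p under 0.05. That filter removes BGLU36, the member called, before testing, so its call could not be kept. Leaving out 1 array gave 0 to 4 calls in WT, 0 to 4 in hira, 0 to 2 in roots, 0 to 1 in protoplasts and 0 to 2 in the difference. Apart from the members that the SD filter leaves out, the cause of these changes was not tested. No called value of a beta-glucosidase changed sign under any alternative it was tested under. Many alternatives keep the change and alter only its spread or p-value, so the sign could not change there. Among the other named genes UGT72E1 in WT, not called at -0.45, was 1.13 without WT root replicate 1 and -2.04 without WT root replicate 2, and passed in both. Replicates of the same number shared no common deviation (correlations from -0.0962 to 0.0485 between groups), so the numbers are not read as pairs, and the replicate block called 2 in WT and 0 in the difference.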
